A study of Mus musculus with 18 samples.

Results

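The skin and the lung of untreated mice were compared as the baseline of a study of atopic dermatitis and its spread to the airways, the question being which barrier, immune, lipid and transcription factor genes each organ carries before any treatment. The comparison used 6 of the 18 libraries of the study, 3 of untreated skin and 3 of untreated lung, chosen by their labels alone. All mice of the study were female and wild type and were sampled at 28 days, and strain, age and skin site are not given in the labels. Untreated mice received no agent. The other 12 libraries came from skin and lung of mice given 4 nmol calcipotriol, a vitamin D analogue also called MC903, and 50 µg ovalbumin, a protein allergen, either alone (AD) or with an emollient holding linoleic acid-ceramide (La-Cer), and they served here only as a second set of libraries for the same tissue contrast. The labels give 3 mice per group, so the 3 libraries of a tissue were taken as 3 mice.

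Skin and lung are both epithelial borders with the outside, built on different plans. The epidermis is a stratified sheet whose upper cells fill with keratin, cross-link a cornified envelope under their membrane and extrude ceramides, cholesterol and fatty acids that seal the space between them. The lung is lined by thin single layers: ciliated and secretory cells in the airways, and in the alveoli flat type 1 cells for gas exchange beside type 2 cells that secrete surfactant, a film of phospholipid and small proteins that keeps the air spaces open. Regional transcription factors set in the embryo, p63 in the epidermis and NKX2-1 in the lung among them, are known to hold these identities in the adult.

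Levels are depth-scaled read counts (CPM, scaled by the TMM method), listed in the order of libraries 1, 2 and 3 of a tissue, and differences are log2 of skin over lung from edgeR's quasi-likelihood test, given as log2 ± SE over 6 libraries, so that a positive value means higher in skin. A gene is called, or higher in an organ, where the Benjamini-Hochberg adjusted p over all genes tested is under 0.05. The untreated libraries held 15012196 to 18647521 counts. Of 55401 genes in the tables, 17074 passed the filter on low counts, 2579 (15.1%) were higher in skin and 3535 (20.7%) were higher in lung, and the median difference of all genes tested was 0.01. Of the genes called higher in skin, 991 differed at least 10-fold, as did 1544 of those called higher in lung. One library of each tissue stood apart from the other 2. Skin 3 correlated with skin 1 and 2 at 0.923 and 0.930 across all genes tested, against 0.981 between those 2, and lung 1 with lung 2 and 3 at 0.927 and 0.917, against 0.985. Without both, 5304 genes were higher in skin and 5526 in lung, and these held 6022 of the 6114 genes called with all 6 libraries. Skin and lung were deposited as separate tables, so any difference between runs cannot be told apart from the difference between organs.

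**Figure D1:**
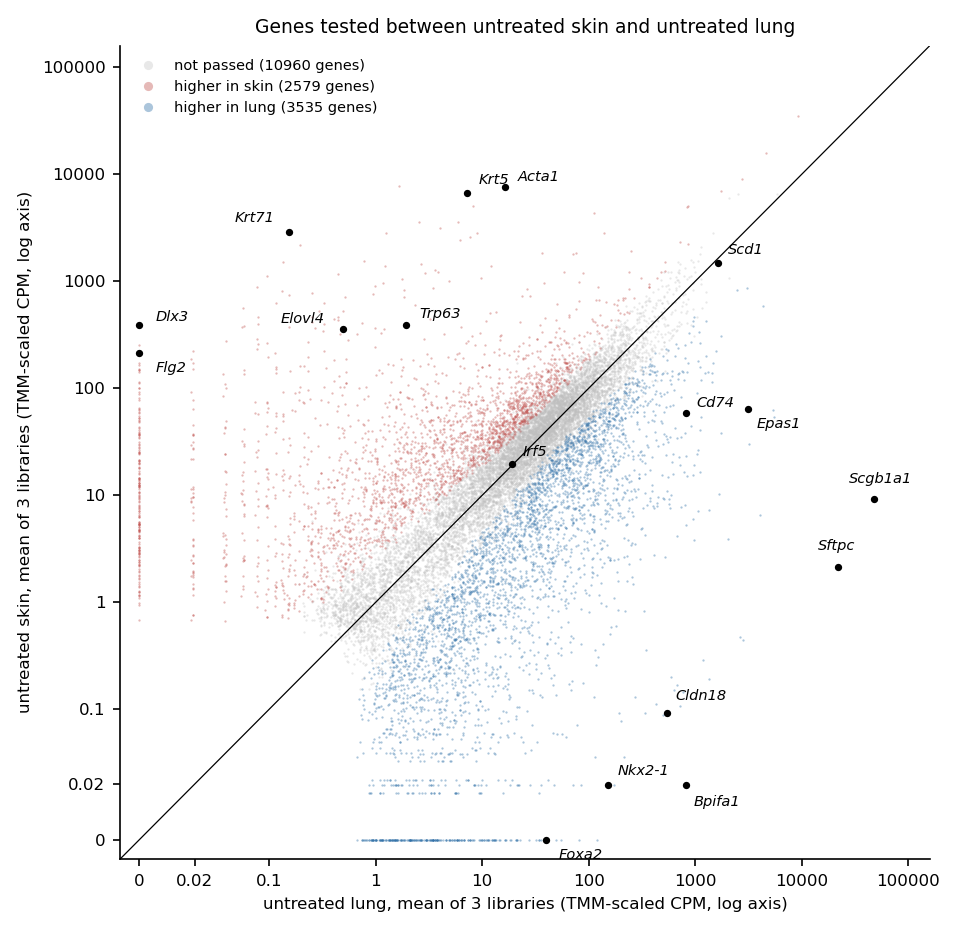
Mean level of each tested gene in 3 untreated lung libraries (horizontal) and 3 untreated skin libraries (vertical), in TMM-scaled CPM on log axes, with 0 drawn at the edge. Red points are the 2579 genes higher in skin, blue points the 3535 higher in lung, and the black points that are named lie from the far upper left, such as Dlx3 and Krt71, to the far lower right, such as Scgb1a1 and Sftpc.

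The defining markers matched the labelled organs. The keratinocyte keratin Krt5 stood at 3889, 5142 and 11142 CPM in skin and 9.31, 4.14 and 8.03 CPM in lung (log2 9.87 ± 0.79, adjusted p = 9.19e-05). Its basal partner Krt14 stood at 2251, 3191 and 5408 CPM in skin and 2.69, 2.32 and 2.7 CPM in lung. The surfactant gene Sftpc, which marks type 2 cells, stood at 2.68, 1.5 and 2.29 CPM in skin and 36902, 16027 and 13547 CPM in lung (log2 -13.32 ± 0.89, adjusted p = 5.89e-05). The club cell secretoglobin Scgb1a1 stood at 5.7, 7.98 and 14 CPM in skin and 56956, 35326 and 50920.4 CPM in lung. The organs differed by orders of magnitude and did not overlap in any of these 4 genes. Both organs also held tissue beyond their epithelium: the 16 tested skeletal muscle genes summed to 20380.3, 20219.8 and 70326 CPM in skin, and the 10 cardiac muscle genes to 3122, 1931 and 3046 CPM in lung. In bulk RNA of this kind, fewer cells of a type and less RNA per cell cannot be told apart.

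Genes of the cornified envelope were higher in skin. Of 45 listed genes, 36 passed the filter on low counts, all of these were higher in skin, with a median difference of 9.71, or 8.28 with genes that had no count in one tissue set at their bound of 3 counts. Loricrin (Lor), the main protein of the envelope, stood at 234, 484 and 2852 CPM in skin and 2.93, 1.88 and 3.93 CPM in lung (log2 8.67 ± 1.16, adjusted p = 0.000747). Suprabasin (Sbsn), secreted by suprabasal cells, stood at 372, 589 and 2263 CPM in skin and 9.31, 11.3 and 8.74 CPM in lung. The keratinocyte secreted protein Krtdap stood at 97.9, 294 and 1501 CPM in skin and 0.234, 0.276 and 0.469 CPM in lung. Every skin library was above every lung library for all 3 genes, and skin 3 was highest. No count fell in lung for 12 of the called members. Among these, filaggrin 2 (Flg2), a filaggrin relative of the granular layer, was at 25.3, 57.2 and 557 CPM in skin, at least 3612-fold higher. Cornifelin (Cnfn) was at 194, 127 and 127 CPM, at least 2662-fold higher. The late cornified envelope gene Lce1m and cornulin (Crnn) were at least 4313-fold and 2592-fold higher. Flg2 and Crnn lost their call when no filter was set on low counts (adjusted p = 0.0904 and 0.114). Of the 36 called members, 22 lay on chromosome 3 between bases 92080271 and 93399442 of GRCm38, the epidermal differentiation complex, and all 22 tested members on that chromosome were called. The members' summed level was 4595, 5407 and 13321 CPM in skin and 142, 161 and 148 CPM in lung.

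Most keratins of stratified epidermis were higher in skin, and some keratins of simple epithelia were higher in lung. Of 14 tested keratins of stratified epidermis, 13 were higher in skin, and their summed level was 11902, 17239 and 39217 CPM in skin against 153, 279 and 295 CPM in lung. Krt10, the suprabasal type I keratin, stood at 485, 1043 and 7041 CPM in skin and 16.1, 5.57 and 5.34 CPM in lung (log2 8.31 ± 1.29). Krt15, a basal and bulge keratin, stood at 872, 1544 and 5362 CPM in skin and 12.8, 4.52 and 5.92 CPM in lung (log2 8.39 ± 0.98). Krt17, found in follicles and stressed epidermis, stood at 3115, 4225 and 1099 CPM in skin and 2.34, 0.331 and 1.11 CPM in lung (log2 11.12 ± 1.06). Among skin libraries, the third was highest for 12 of the 14 tested members and lowest for Krt17. A further list held Krt4, Krt7, Krt8, Krt13, Krt18, Krt19 and Krt20, most but not all of them keratins of simple epithelia. Of its 6 tested members, 3 were higher in lung, 3 did not pass and none was higher in skin. Krt7 stood at 2.28, 1.77 and 3.58 CPM in skin and 448, 301 and 171 CPM in lung (log2 -6.91 ± 0.56, adjusted p = 9.72e-05), without overlap. The other two, Krt8 (log2 -5.0 ± 0.90) and Krt19 (log2 -5.45 ± 0.52), also belong to single-layered epithelium. Type II keratins lie together on chromosome 15 and most type I keratins on chromosome 11, and neighbours in the same clusters differed in opposite directions.

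Desmosome genes were mostly higher in skin, and tight junction genes were more often higher in lung than in skin. Desmosomes rivet cells that bear mechanical load, and 11 of 13 tested members were higher in skin. Plakophilin 1 (Pkp1) stood at 592, 554 and 1108 CPM in skin and 0.0586, 0.165 and 0.235 CPM in lung (log2 12.20 ± 0.71, adjusted p = 5e-05). Desmoplakin (Dsp), which ties desmosomes to keratin, stood at 1755, 1128 and 2647 CPM in skin and 42.1, 91.7 and 96 CPM in lung (log2 4.59 ± 0.56). Neither overlapped between the organs. Plakophilin 2 (Pkp2), which is also a junction protein of heart muscle, was the member higher in lung (log2 -1.77 ± 0.39). Of 21 tested tight junction genes, 3 (14.3%) were higher in skin and 9 (42.9%) in lung, with a median difference of -0.12. The skin share was near the 15.1% of all genes tested, and the lung share was above their 20.7%. Cldn1, whose loss opens the epidermal barrier in mice, stood at 219, 190.1 and 216 CPM in skin and 12.4, 9.49 and 9.32 CPM in lung (log2 4.32 ± 0.33, adjusted p = 7.68e-05), with little spread within either organ. Cldn4 was also higher in skin (log2 4.53 ± 0.54). Cldn18, the claudin of alveolar epithelium, stood at 0.149, 0.131 and 0 CPM in skin and 822, 519 and 285 CPM in lung (log2 -12.38 ± 0.88, adjusted p = 6.99e-05), and was highest in lung 1. Cldn5, of endothelium, stood at 6.7, 5.89 and 5.34 CPM in skin and 1113, 816 and 924 CPM in lung (log2 -7.31 ± 0.44). Cldn3 (log2 -3.22 ± 0.35) and the scaffold protein Tjp1 (log2 -2.14 ± 0.36) were higher in lung too. The tested barrier gene with the smallest difference was Cldn12, at 38.3, 29.7 and 23.3 CPM in skin and 44.9, 26.5 and 25.2 CPM in lung (log2 -0.08 ± 0.35, adjusted p = 0.883), where the groups overlapped.

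Proteases and inhibitors that control shedding of corneocytes were mostly skin genes, with 11 of 17 tested members higher in skin and 1 in lung. Corneodesmosin (Cdsn), the glue of the outermost cells, stood at 73.1, 83.2 and 268 CPM in skin and 0.586, 0.938 and 0.0586 CPM in lung (log2 8.04 ± 0.94). Its protease Klk7 stood at 146, 159 and 176 CPM in skin and 0.293, 0.11 and 0.235 CPM in lung (log2 9.52 ± 0.47). The inhibitor Spink5, mutated in Netherton syndrome in humans, stood at 46.3, 59.5 and 382 CPM in skin and 0.469, 0.0551 and 0.0586 CPM in lung (log2 9.67 ± 1.28). All 3 were far above lung in each skin library, and skin 3 was highest. The membrane protease matriptase (St14) and its inhibitor Spint1 were higher in skin (log2 2.77 ± 0.54 and log2 1.82 ± 0.44). Prss8, a matriptase partner that also acts on the epithelial sodium channel, was higher in lung, at 25.1, 27.2 and 26.3 CPM in skin and 51.5, 48.9 and 50.4 CPM in lung (log2 -0.94 ± 0.25, adjusted p = 0.0196). The organs did not overlap in Prss8, but its call was lost in 4 of the 6 fits that left out 1 library, those without skin 1, skin 2, lung 2 or lung 3 (adjusted p up to 0.092), and with the replicate block (adjusted p = 0.0768). Spint1 lost its call without skin 2 or lung 2 (adjusted p up to 0.0551).

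The surfactant genes differed in the other direction. All 10 of 11 listed genes that passed the filter were higher in lung, with a median difference of -10.20, and they summed to 46149, 24331 and 22132 CPM in lung and 132, 95.8 and 110.3 CPM in skin. Sftpb, the protein that spreads surfactant lipid, stood at 0.298, 0.327 and 0.704 CPM in skin and 2166, 2949 and 3284 CPM in lung (log2 -12.61 ± 0.69, adjusted p = 5e-05). Sftpa1, a collectin that also binds microbes, stood at 0.298, 0.72 and 0.411 CPM in skin and 3235, 2307 and 2451 CPM in lung. The collectin Sftpd stood at 0, 0.262 and 0.0587 CPM in skin and 1049, 573 and 531 CPM in lung. No skin library reached 1 CPM in these 3 genes. The phosphate transporter Slc34a2 of type 2 cells was higher in lung as well (log2 -8.0 ± 0.60). Among lung libraries, the first was highest for 7 of the 10 tested members. All 13 tested markers of alveolar type 1 cells were higher in lung, with a median of -3.94. Ager, the receptor for glycation end products on their surface, stood at 3.77, 7.26 and 0.822 CPM in skin and 3588, 1621 and 838 CPM in lung (log2 -9.0 ± 1.08, adjusted p = 0.000459). Hopx, which is also made in the epidermis and hair follicle, stood at 156, 150.4 and 119.8 CPM in skin and 1603, 572 and 370.1 CPM in lung (log2 -2.58 ± 0.58). Both were highest in lung 1.

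Genes of airway cells were higher in lung for 16 of 17 tested secretory genes, with a median of -10.46 (-7.91 at the bound), and for all 19 tested genes of motile cilia. Scgb1a1 was the most abundant lung gene per length, at 100282 CPM per kilobase of exon, followed by Sftpc at 21430 CPM per kilobase. The secretoglobin Scgb3a2 stood at 0.149, 0.196 and 0.235 CPM in skin and 2094, 815 and 1156 CPM in lung. The monooxygenase Cyp2f2, which marks club cells, stood at 38, 27.8 and 25.6 CPM in skin and 2441, 2464 and 4617 CPM in lung. Skin was under 1 CPM for the first and held a low level of the second in all 3 libraries. The airway antimicrobial protein Bpifa1 had 1 count over the 3 skin libraries and 1236, 424 and 780.4 CPM in lung, a ratio of 42268 (95% interval 7586 to 1669555). Foxj1, the master factor of motile cilia, stood at 3.22, 3.08 and 0.176 CPM in skin and 96.8, 75.1 and 154 CPM in lung (log2 -5.64 ± 0.87, adjusted p = 0.00146). Ccdc153, a cilia gene, had no count in skin and stood at 132, 48.5 and 65.1 CPM in lung, at least 1422-fold higher. The 17 secretory genes summed to 103, 108 and 107 CPM in skin, and the 19 cilia genes to 64.6, 82.3 and 190.4 CPM.

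Hair follicle genes were higher in skin and were far lower in 1 skin library than in the other two. All 19 listed genes were tested and higher in skin, with a median difference of 12.50 (12.10 at the bound). Trichohyalin (Tchh), which hardens the inner root sheath, stood at 7878, 2696 and 112 CPM in skin and 5.62, 5.35 and 6.74 CPM in lung (log2 9.23 ± 1.50, adjusted p = 0.00189). The sheath keratin Krt71 stood at 6349, 2157 and 81.3 CPM in skin and 0.117, 0.165 and 0.176 CPM in lung. Its partner Krt25 stood at 4164, 2288 and 73.4 CPM in skin and 0.527, 0.0551 and 0 CPM in lung. Skin 3 was the lowest skin library for all 19 genes, and their summed level was 31439.9, 13142 and 578 CPM in skin and 9.31, 8.38 and 10.4 CPM in lung. Melanocyte genes were also lowest in skin 3, at 2087, 1833 and 121 CPM summed over 8 members, led by the pigment enzyme Dct at 771, 579 and 43.4 CPM. Cell division genes summed to 1521, 1958 and 517 CPM in skin and 284, 157 and 165 CPM in lung, with 17 of 18 tested members higher in skin, Mki67 and Top2a among them (log2 4.91 ± 0.62 and log2 4.70 ± 0.61). Muscle genes, in contrast, were highest in skin 3. Red blood cell genes summed to 4416, 83.1 and 953 CPM in lung, 5 of 6 tested being called higher there, and 1 without skin 3 and lung 1. The part of follicle, pigment cell, muscle and blood content in other results was not tested.

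**Figure D2:**
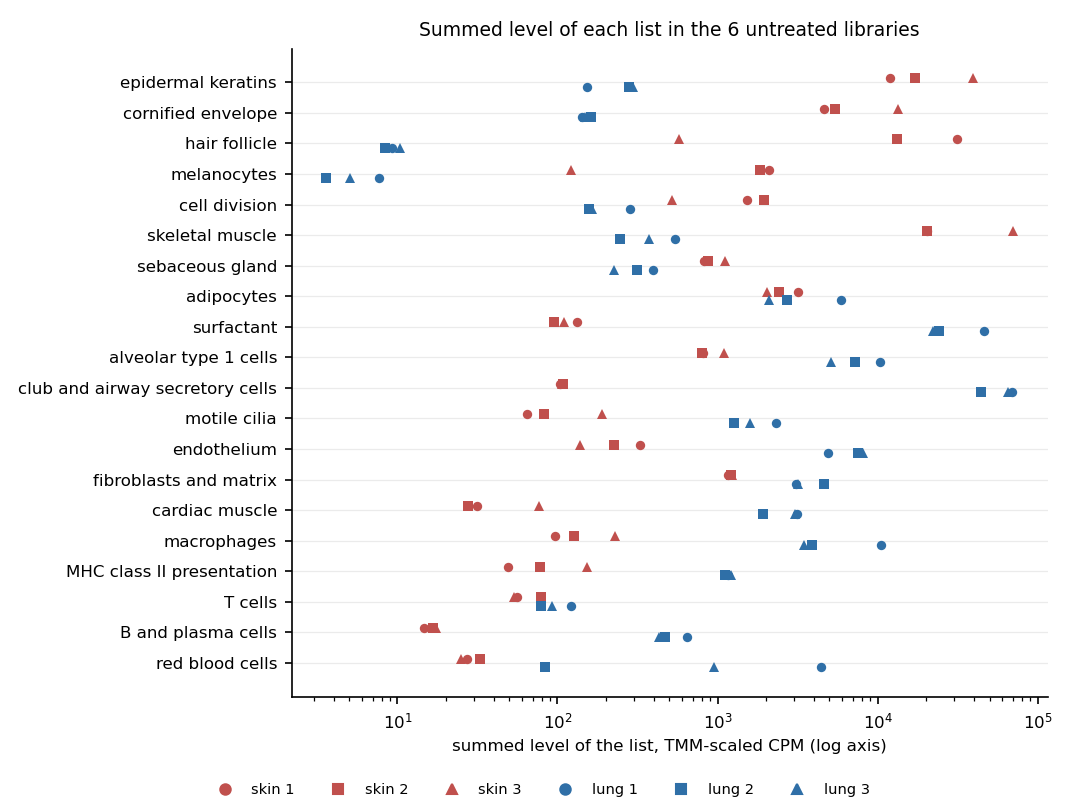
Summed level of 20 lists in each of the 3 skin (red) and 3 lung (blue) untreated libraries, in TMM-scaled CPM on a log axis, 1 marker shape per library. Skin 3 (red triangles) is far below skin 1 and 2 for hair follicle, melanocytes and cell division and above them for epidermal keratins, cornified envelope and skeletal muscle, and lung 1 (blue circles) is the highest lung library for red blood cells and adipocytes.

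Promoters of called genes of the cornified envelope, the hair follicle and surfactant are shown because these 3 groups carry large tissue differences above. Only genes with exactly 1 RefSeq promoter, whose start lies within 50 bases of the gene start in the tables, were taken. Among these, the 3 called members of highest mean level are shown for each group. They are printed over the 150 bases before the start, 5′ to 3′ on the gene's strand, from RefSeq on GRCm38.p6. Both strands were searched for 8 motifs, and capitals mark the matches. The core promoter motif was the TATA box, spelled TATAAA. Epidermal factors were searched as TGANTCA for AP-1, as CCACCC for KLF factors, as AACCGG for grainyhead (GRHL) factors and as GCCNNNGGC for TFAP2 factors. Lung and other factors were searched as CTCAAG for NKX2-1, as TGTTTAC for FOXA factors and as AGATAA for GATA factors.
Lor: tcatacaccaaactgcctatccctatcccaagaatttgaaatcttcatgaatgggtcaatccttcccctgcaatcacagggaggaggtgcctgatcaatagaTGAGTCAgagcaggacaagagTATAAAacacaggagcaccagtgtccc
Sbsn: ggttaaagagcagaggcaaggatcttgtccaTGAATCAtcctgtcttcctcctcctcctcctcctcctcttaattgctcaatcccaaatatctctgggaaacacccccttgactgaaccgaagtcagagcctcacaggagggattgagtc
Krtdap: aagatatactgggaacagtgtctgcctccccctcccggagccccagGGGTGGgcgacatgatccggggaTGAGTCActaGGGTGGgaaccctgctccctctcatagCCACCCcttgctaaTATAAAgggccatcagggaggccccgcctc
Tchh: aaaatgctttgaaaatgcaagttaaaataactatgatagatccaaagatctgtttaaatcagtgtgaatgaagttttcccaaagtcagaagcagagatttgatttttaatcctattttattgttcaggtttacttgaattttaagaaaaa
Krt71: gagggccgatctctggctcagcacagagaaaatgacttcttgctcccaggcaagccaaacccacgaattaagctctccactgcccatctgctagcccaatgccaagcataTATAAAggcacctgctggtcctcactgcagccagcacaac
Krt25: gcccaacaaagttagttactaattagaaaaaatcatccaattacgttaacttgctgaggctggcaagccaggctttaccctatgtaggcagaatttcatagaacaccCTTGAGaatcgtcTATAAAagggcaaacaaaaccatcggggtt
Sftpb: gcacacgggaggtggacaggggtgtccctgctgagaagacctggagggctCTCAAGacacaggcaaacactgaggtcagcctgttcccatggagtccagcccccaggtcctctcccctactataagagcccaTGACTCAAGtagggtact
Sftpa1: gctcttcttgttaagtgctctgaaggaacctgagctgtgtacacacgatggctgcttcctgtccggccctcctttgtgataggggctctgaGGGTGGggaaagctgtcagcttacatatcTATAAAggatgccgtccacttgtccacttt
Lamp3: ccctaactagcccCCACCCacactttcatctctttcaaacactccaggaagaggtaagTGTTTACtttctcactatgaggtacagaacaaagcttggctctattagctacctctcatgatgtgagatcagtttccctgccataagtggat

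In these sequences, Lor (chr3:92083143-92083292, minus strand), Sbsn (chr7:30751321-30751470, plus strand) and Krtdap (chr7:30787755-30787904, plus strand) each hold an AP-1 match. Krt71 (chr15:101743098-101743247, minus strand) and Krt25 (chr11:99322952-99323101, minus strand) hold a TATA box and no AP-1 match, Krt25 holds an NKX2-1 match on the opposite strand, and Tchh (chr3:93442180-93442329, plus strand) holds none of the motifs. Sftpb (chr6:72304460-72304609, plus strand) holds 2 NKX2-1 matches, the second of which overlaps an AP-1 match. Sftpa1 (chr14:41131638-41131787, plus strand) holds a TATA box and a KLF match, and Lamp3 (chr16:19706366-19706515, minus strand), a membrane protein of the lamellar bodies that store surfactant, holds a FOXA match and a KLF match.

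Over 250 bases before the start, a TATA box was found in 12.4% and an AP-1 match in 6.75% of all 32851 RefSeq promoters. Of 42 promoters of 39 cornified envelope genes, 15 (35.7%) held a TATA box and 15 held an AP-1 match. A GRHL match was found in 0 of the 42, against 5.62% of all promoters, a TFAP2 match in 4.76%, against 13.7%, and a KLF match in 33.3%, against 28.1%. In 15718 promoters of tested genes, a TATA box was found in 7.61% and an AP-1 match in 5.19%. There, GRHL, TFAP2 and KLF matches were found in 8.21%, 19.6% and 33.5%, so the KLF share of the 42 was not above that of tested genes. Of 7 promoters of epidermal keratins, 1 held a TATA box and 0 an AP-1 match. Of 14 hair follicle promoters, 12 (85.7%) held a TATA box and 0 an AP-1 match. Of 7 surfactant promoters, 2 held a TATA box and 2 an NKX2-1 match, a motif found in 13.3% of all promoters. Among skin lists, an NKX2-1 match was found in 2 of 7 epidermal keratin, 3 of 14 hair follicle and 5 of 42 cornified envelope promoters. Among genes at least 10-fold higher in one organ, a TATA box was found in 17.0% of 841 promoters of skin genes and 10.3% of 1372 promoters of lung genes, and an NKX2-1 match in 11.5% and 13.4%. Many cornified envelope genes and keratins are close copies of each other, so their promoters are not independent, and a match is only a string of letters.

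**Figure D3:**
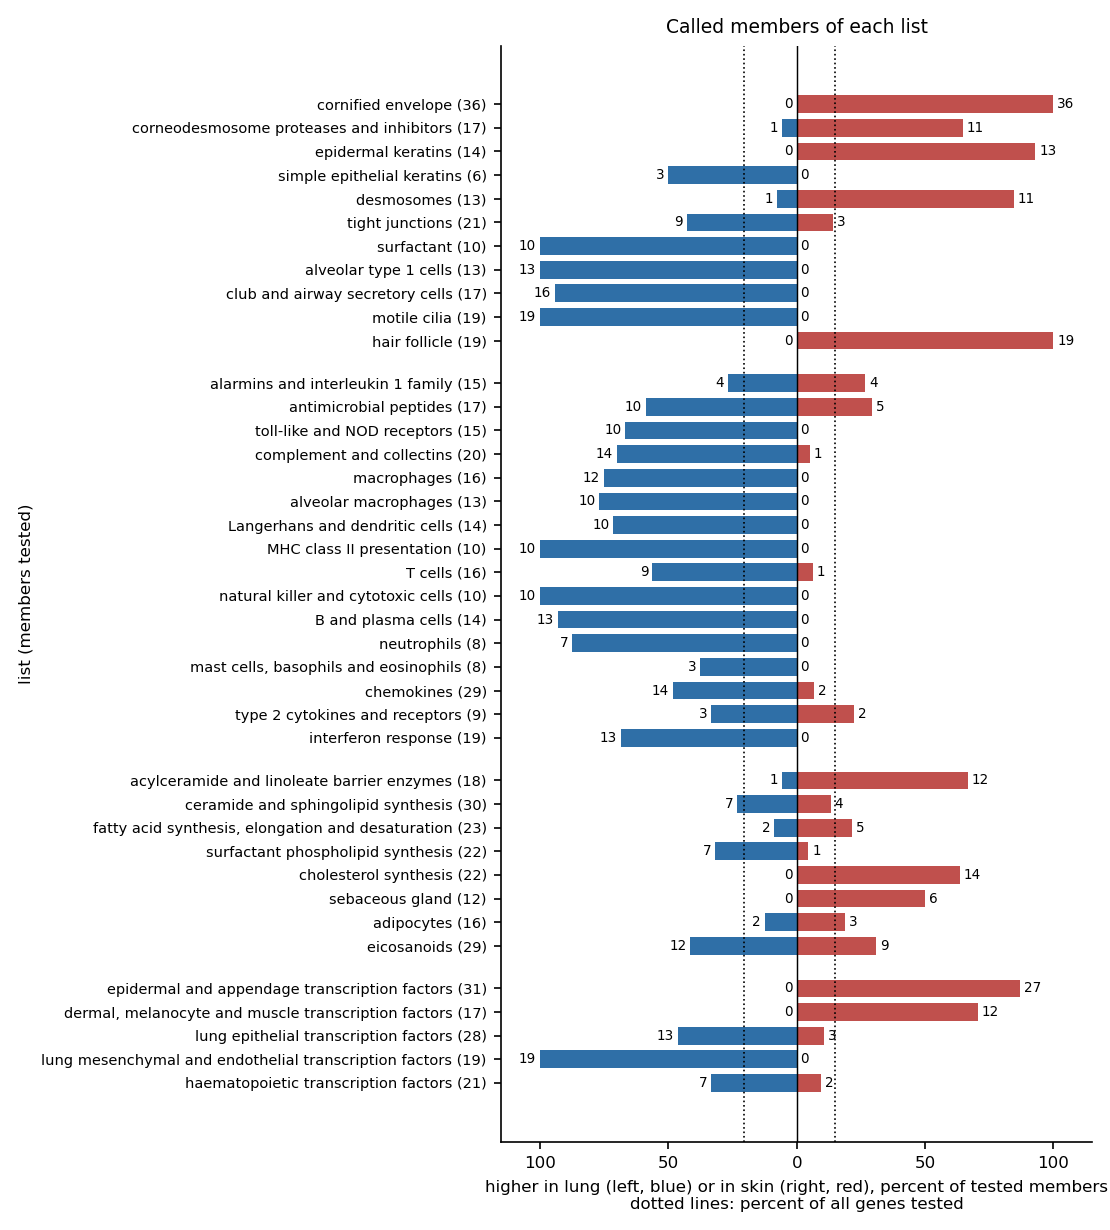
Percent of the tested members of each list that were higher in skin (red, to the right) or in lung (blue, to the left), with the number of called members at the end of each bar and the number tested in brackets. Dotted lines mark the share of all genes tested that was called, 15.1% for skin and 20.7% for lung, and in the second block, of immune lists, most bars lie on the lung side, while the alarmins, antimicrobial peptides and type 2 genes also pass the skin line.

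Immune genes were mostly higher in lung. The share of tested members higher in lung ran from 26.7% to 100% over the 16 immune lists, against 20.7% of all genes tested. In 10 of the lists no member was higher in skin, and in 3, the alarmins, antimicrobial peptides and type 2 genes, the share higher in skin was above the 15.1% of all genes tested. MHC class II genes, which present antigen to helper T cells, were all higher in lung (10 of 10 tested, median -3.80). Their invariant chain Cd74 stood at 28.5, 46.7 and 100.2 CPM in skin and 765, 827 and 885 CPM in lung (log2 -3.82 ± 0.54, adjusted p = 0.000932). H2-Ab1, a beta chain, stood at 4.86, 8.57 and 10.2 CPM in skin and 74.6, 47.4 and 67.6 CPM in lung (log2 -3.01 ± 0.38). The organs did not overlap, and among skin libraries the third was highest for all 10 genes. General macrophage genes were higher in lung for 12 of 16 tested and in skin for none. The growth factor receptor Csf1r stood at 6.4, 12.5 and 20 CPM in skin and 38, 73.8 and 60.9 CPM in lung (log2 -2.15 ± 0.47). The mannose receptor Mrc1 stood at 7.24, 12.8 and 19.3 CPM in skin and 75.6, 49.2 and 52.9 CPM in lung (log2 -2.18 ± 0.41). Genes of alveolar macrophages were higher in lung for 10 of 13, among them the chitinase-like protein Chil3 at 0.0992, 0.0654 and 0.352 CPM in skin and 81.1, 59.5 and 57.2 CPM in lung (log2 -8.52 ± 0.58). Car4 in that list is also made by lung capillary cells (log2 -7.18 ± 0.42). Genes of Langerhans and dendritic cells were higher in lung for 10 of 14. The type 1 dendritic cell receptor Clec9a stood at 0.595, 0.0654 and 0.763 CPM in skin and 17.3, 57.7 and 81.4 CPM in lung (log2 -6.73 ± 0.86). The Langerhans cell lectin Cd207 stood at 1.29, 0.589 and 2.82 CPM in skin and 7.85, 2.32 and 2.23 CPM in lung (log2 -1.39 ± 0.73, adjusted p = 0.178), with overlap between the organs. Clec9a was lowest of the lung libraries in lung 1.

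Lymphocyte genes were also mostly higher in lung. For B and plasma cells, 13 of 14 tested genes were higher in lung, with a median of -7.56 (-6.77 at the bound) and summed levels of 14.6, 16.6 and 17.4 CPM in skin and 641, 467 and 430 CPM in lung. The kappa constant region Igkc stood at 0.446, 0.851 and 0.528 CPM in skin and 240, 160.3 and 136 CPM in lung (log2 -8.20 ± 0.49, adjusted p = 5.11e-05). Igha, of the mucosal antibody class, stood at 0.595, 2.29 and 1.06 CPM in skin and 76.7, 107 and 95.1 CPM in lung (log2 -6.16 ± 0.55). No skin library reached 3 CPM in either gene, and every lung library was far above. Cytotoxic genes were higher in lung for all 10 that passed the filter, of 13 listed. Granzyme A (Gzma) stood at 0, 0 and 0.0587 CPM in skin and 61.6, 8.6 and 14.9 CPM in lung, a ratio of lung over skin of 1467 (95% interval 263 to 57992). The chemokine Ccl5 of the same cells stood at 0, 0.131 and 0.117 CPM in skin and 23, 8.66 and 11.8 CPM in lung (log2 -7.41 ± 0.82). Both were highest in lung 1. T cell genes were called in lung for 9 of 16 tested. Cd3d, a chain of the T cell receptor complex, stood at 0.0496, 0.196 and 0.176 CPM in skin and 17, 4.3 and 4.63 CPM in lung (log2 -5.92 ± 0.85, adjusted p = 0.00105). The exception in that list was Thy1, which fibroblasts and nerves also make, at 39.2, 53.9 and 20.8 CPM in skin and 16, 14.6 and 17.4 CPM in lung (log2 1.25 ± 0.38). The organs did not overlap in Thy1, but its call was lost in 5 of the 6 fits that left out 1 library, all but that without skin 3 (adjusted p up to 0.151), and with the replicate block (adjusted p = 0.0674). Neutrophil genes were higher in lung for 7 of 8, with S100a9 at 0.794, 2.75 and 4.64 CPM in skin and 62.4, 19.6 and 14.7 CPM in lung (log2 -3.57 ± 0.78). Of mast cell, basophil and eosinophil genes only 8 of 15 listed passed the filter, and 3 were higher in lung.

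Epithelial alarmins and the interleukin 1 family were called as often in skin as in lung, with 4 of 15 tested genes higher in skin, 4 higher in lung and a median difference of -0.27. The members higher in skin included inhibitors of the pathway. Il1rn, the receptor antagonist, stood at 28.2, 31 and 87.1 CPM in skin and 2.4, 3.69 and 3.69 CPM in lung (log2 3.90 ± 0.54, adjusted p = 0.000841). The decoy receptor Il1r2 stood at 16.6, 34.9 and 101 CPM in skin and 0.82, 0.551 and 0.704 CPM in lung (log2 6.18 ± 0.76). Both were highest in skin 3 and did not overlap with lung. Il1f5, the antagonist of the interleukin 36 receptor, was at 14.1, 12.1 and 48.7 CPM in skin and had no count in lung, at least 431-fold higher, and Il1f10 (interleukin 38) was at least 165-fold higher. The lung members were the cytokine Il1b (log2 -3.09 ± 0.83) and 3 receptors, of which Il18r1 binds interleukin 18 (log2 -4.72 ± 0.86). Il1rl1, the receptor for interleukin 33, stood at 0.347, 0.262 and 0.528 CPM in skin and 3.57, 4.52 and 5.75 CPM in lung (log2 -3.58 ± 0.51, adjusted p = 0.000985). Crlf2, a chain of the receptor for thymic stromal lymphopoietin, stood at 6.1, 7.98 and 6.92 CPM in skin and 18.4, 20 and 25.3 CPM in lung (log2 -1.60 ± 0.32, adjusted p = 0.00482). The cytokines for the last 2 receptors did not pass. Il33 stood at 7.59, 15.7 and 73.1 CPM in skin and 73.8, 62.3 and 55.9 CPM in lung (adjusted p = 0.327), and Tslp at 0.496, 0.72 and 10.3 CPM in skin and 9.61, 5.46 and 5.75 CPM in lung (adjusted p = 0.551). In both, skin 1 and 2 were below every lung library, and skin 3 was not. Without skin 3 and lung 1, 4 of the list were higher in skin and 8 in lung. Il1b lost its call without skin 2, lung 1 or lung 2 (adjusted p up to 0.0779).

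Of type 2 cytokine and receptor genes, 9 of 15 listed passed the filter. Il4ra, the shared receptor chain for interleukins 4 and 13, was higher in lung, at 17.7, 19 and 27.3 CPM in skin and 90.2, 142 and 155 CPM in lung (log2 -2.60 ± 0.35, adjusted p = 0.000775), as were Il7r (log2 -5.14 ± 0.62) and the common gamma chain Il2rg (log2 -3.74 ± 0.61). Il31ra, the receptor for the itch cytokine interleukin 31, stood at 1.04, 1.64 and 23.2 CPM in skin and 0, 0.0551 and 0 CPM in lung, a ratio of skin over lung of 439 (95% interval 78.4 to 17383), with an adjusted p of 0.00623. Il17rb, which binds interleukin 25, stood at 1.49, 2.94 and 7.75 CPM in skin and 0.293, 0.717 and 1.17 CPM in lung (log2 2.47 ± 0.76). Both were higher in skin, without overlap between the organs and with the highest level in skin 3. Il17rb lost its call in 4 of the 6 fits that left out 1 library, those without skin 2, skin 3, lung 1 or lung 2 (adjusted p up to 0.103).

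Antimicrobial genes were called in both directions. Of 17 tested antimicrobial genes, 5 were higher in skin and 10 in lung. The beta-defensin Defb6 was at 20, 34.1 and 37.3 CPM in skin, with a ratio over lung of 518 (95% interval 177 to 2514). Defb1 stood at 15.2, 10.8 and 22.1 CPM in skin and 0.176, 0 and 0.176 CPM in lung (log2 7.03 ± 0.76, adjusted p = 0.000297). Defb14 stood at 0.546, 2.62 and 6.98 CPM in skin and 0.0586, 0 and 0 CPM in lung. All 3 tested genes of the list on chromosome 8, where these defensins lie, were higher in skin. Lysozyme Lyz2, made by type 2 cells and macrophages, stood at 27.8, 41.3 and 91.8 CPM in skin and 10058, 3353 and 2927 CPM in lung (log2 -6.67 ± 0.83, adjusted p = 0.000532). The whey acidic protein Wfdc2 stood at 0.198, 0.196 and 0.469 CPM in skin and 1838, 708 and 989 CPM in lung (log2 -11.97 ± 0.76). The lectin Reg3g stood at 0, 0 and 0.0587 CPM in skin and 188, 29 and 39.9 CPM in lung. These 3 were highest in lung 1, and lactoferrin Ltf was higher in lung too (log2 -8.27 ± 1.28).

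Complement and receptors of innate immunity were mostly higher in lung. Of 20 tested complement and collectin genes, 14 were higher in lung, including C3 at 58.3, 52.9 and 96 CPM in skin and 451, 738 and 567 CPM in lung (log2 -3.08 ± 0.41, adjusted p = 0.000702). The organs did not overlap in C3. Factor D (Cfd), which fat cells secrete, was the only member called higher in skin, at 557, 563 and 330.3 CPM in skin and 261, 53.1 and 69.2 CPM in lung (log2 1.92 ± 0.63, adjusted p = 0.0442). Its call was lost in the fits without skin 1, skin 2, lung 2 or lung 3 (adjusted p up to 0.128) and with all 18 libraries in the fit (adjusted p = 0.147). Toll-like and NOD receptors were higher in lung for 10 of 15, with the lipopolysaccharide co-receptor Cd14 at 1.79, 2.68 and 4.75 CPM in skin and 34.2, 20 and 34.5 CPM in lung (log2 -3.27 ± 0.47). Interferon response genes were higher in lung for 13 of 19, with a median of -1.68. Bst2, which tethers viruses, stood at 9.62, 11.4 and 10.7 CPM in skin and 176, 103 and 109 CPM in lung (log2 -3.61 ± 0.35), with no overlap.

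Chemokine genes were more often higher in lung than in skin. Ccl27a, which draws T cells to skin, stood at 30.3, 62 and 108 CPM in skin and 2.75, 1.21 and 0.704 CPM in lung (log2 5.42 ± 0.69, adjusted p = 0.000585). Ccl8 was the other chemokine higher in skin (log2 3.04 ± 0.60). Cxcl15, known as lungkine, stood at 0.248, 0.131 and 0.0587 CPM in skin and 1113, 646 and 556 CPM in lung (log2 -12.26 ± 0.71, adjusted p = 5e-05). Every lung library was far above every skin library for Cxcl15, and the reverse held for Ccl27a. Of 29 tested chemokine genes, 14 (48.3%) were higher in lung and 2 (6.9%) in skin, against 20.7% and 15.1% of all genes tested. Without skin 2, 9 were higher in lung. Cxcl12, which retains leukocytes and stem cells, stood at 133, 108 and 71.4 CPM in skin and 137, 445 and 516 CPM in lung (log2 -1.82 ± 0.53). Its lowest lung library nearly met the highest skin library, and its call was lost in 5 of the 6 fits that left out 1 library, all but that without lung 1 (adjusted p up to 0.0841), and with the replicate block (adjusted p = 0.0536). The membrane-bound Cx3cl1 (log2 -1.98 ± 0.47) lost its call without skin 2 (adjusted p = 0.0508). The immune gene of smallest difference was Cd59a, a shield against complement, at 12.6, 14.1 and 16.8 CPM in skin and 26.2, 10.5 and 8.91 CPM in lung (log2 -0.07 ± 0.46).

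Genes of the epidermal lipid barrier were mostly higher in skin. Of 18 tested enzymes and transporters for acylceramide and the linoleate barrier, 12 were higher in skin and 1 in lung, with a median difference of 4.36. Elovl4, which makes the ultra-long acyl chains, stood at 279.7, 342 and 456 CPM in skin and 0.469, 0.496 and 0.528 CPM in lung (log2 9.48 ± 0.47, adjusted p = 4.73e-05). Cers3, the ceramide synthase that uses these chains, stood at 22.8, 17.3 and 28.2 CPM in skin and 0.996, 0.165 and 0.235 CPM in lung (log2 5.60 ± 0.69). Pnpla1, which joins linoleate to them, was at 39.8, 31.4 and 23.2 CPM and had no count in lung, at least 557-fold higher. Abca12, the transporter that loads lamellar granules, stood at 26.1, 29.7 and 110.1 CPM in skin and 0.0586, 0.0551 and 0.293 CPM in lung (log2 8.61 ± 0.93). Elovl4, Cers3, Pnpla1 and Abca12 did not overlap between the organs. The lipoxygenase Alox12b, which oxidises the linoleate of acylceramide, stood at 3.72, 10.7 and 72.4 CPM in skin and 0, 0 and 0.176 CPM in lung, a ratio of 488 (95% interval 167 to 2370.3). Aloxe3, which acts on its product, stood at 7.69, 19.1 and 74.8 CPM in skin and 1.11, 1.6 and 0.997 CPM in lung (log2 4.77 ± 0.86). Both were highest in skin 3, as was Abca12. The fatty acid transporter Slc27a4, needed for the barrier in mice, was higher in skin (log2 1.75 ± 0.30), and Acsl4, which activates arachidonate, was higher in lung (log2 -2.22 ± 0.34).

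Ceramide and sphingolipid genes outside that pathway were called in both directions, with 4 of 30 tested genes higher in skin, 7 higher in lung and a median of -0.10. These shares, 13.3% and 23.3%, lay near the 15.1% and 20.7% of all genes tested. Fa2h, which hydroxylates ceramide acids, stood at 112, 149 and 134 CPM in skin and 0, 0.496 and 0.88 CPM in lung (log2 8.14 ± 0.86, adjusted p = 0.000267). The ceramidase Acer1 was at 52.8, 50.8 and 87.6 CPM in skin with a ratio over lung of 3319 (95% interval 595 to 131126). The ceramidase Acer2 stood at 20.6, 19.4 and 11.2 CPM in skin and 236, 414 and 473 CPM in lung (log2 -4.46 ± 0.45, adjusted p = 0.000228). These 2 ceramidases thus differed in opposite directions, without overlap. The ceramide synthase Cers2 was higher in lung, at 34.5, 37.3 and 24.9 CPM in skin and 241, 176 and 159 CPM in lung (log2 -2.58 ± 0.34, adjusted p = 0.000619), and Cers1 in skin (log2 2.55 ± 0.65), a call lost without lung 2 (adjusted p = 0.0544). S1pr1, the receptor for sphingosine 1-phosphate on endothelium and lymphocytes, stood at 9.92, 6.02 and 7.04 CPM in skin and 413, 362 and 445 CPM in lung (log2 -5.73 ± 0.40). Without skin 3 and lung 1, 10 members were higher in skin and 11 in lung, without lung 1 alone 7 were higher in skin, and without lung 2 alone 2 were.

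The leading fatty acid synthesis genes had high levels in both organs. Of 23 tested genes, 5 (21.7%) were higher in skin and 2 (8.7%) in lung, against 15.1% and 20.7% of all genes tested. Their median was 0.08, and 3 were higher in skin without lung 2. The desaturase Scd1 stood at 1940.1, 1173 and 1387 CPM in skin and 1712, 2086 and 1076 CPM in lung (adjusted p = 0.862). The synthase Fasn stood at 750.4, 499.6 and 372 CPM in skin and 408, 1126 and 426 CPM in lung (adjusted p = 0.716). The organs overlapped in both. The skin desaturase Scd3, a sebaceous isoform, stood at 25, 27.2 and 51.1 CPM in skin and 0.351, 0.717 and 0.293 CPM in lung (log2 6.21 ± 0.55, adjusted p = 0.000135). The elongase Elovl6 was higher in skin (log2 2.65 ± 0.42), and Elovl5, which extends polyunsaturated chains, was higher in lung (log2 -1.81 ± 0.30). Of 22 tested genes for surfactant phospholipid, 7 (31.8%) were higher in lung, against 20.7% of all genes tested. The other members were 1 higher in skin and 14 that did not pass, and the median was -0.28. Lpcat1, which makes the dipalmitoyl lecithin of surfactant, stood at 37.6, 22.6 and 6.22 CPM in skin and 368, 294 and 259 CPM in lung (log2 -3.79 ± 0.63, adjusted p = 0.0021). Abca3, which loads lamellar bodies of type 2 cells, stood at 42.7, 28.3 and 37.5 CPM in skin and 93.5, 247 and 242 CPM in lung (log2 -2.43 ± 0.44, adjusted p = 0.00306). Abca3 and Abca12, relatives that fill lamellar organelles with lipid in the 2 organs, differed in opposite directions.

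Cholesterol synthesis genes were mostly higher in skin, with 14 of 22 tested genes higher in skin, 0 in lung and a median of 1.49. Hmgcs1, an early step, stood at 431, 416 and 319 CPM in skin and 120.4, 135 and 108 CPM in lung (log2 1.68 ± 0.32, adjusted p = 0.00367). Sult2b1, which makes the cholesterol sulphate of the epidermis, stood at 61.8, 80.5 and 49.4 CPM in skin and 1.76, 1.6 and 1.88 CPM in lung (log2 5.19 ± 0.36). Skin 3 was the lowest skin library for 19 of the 22 genes. Sebaceous gland genes were higher in skin for 6 of 12, including the wax synthase Awat1 (at least 217-fold), the reductase Far2 (log2 5.87 ± 0.56) and the synthetase Acsbg1 (log2 7.07 ± 0.71).

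Eicosanoid genes were divided between the organs. Of 29 tested, 9 (31.0%) were higher in skin and 12 (41.4%) in lung, against 15.1% and 20.7% of all genes tested. The epidermal lipoxygenase Alox12e stood at 65.2, 97 and 174 CPM in skin and 0.351, 0.772 and 0.469 CPM in lung (log2 7.70 ± 0.58, adjusted p = 8.09e-05). Alox8, another lipoxygenase, stood at 102, 52.7 and 3.23 CPM in skin and 0.761, 0 and 0.0586 CPM in lung. The prostaglandin D synthase Ptgds stood at 216, 267 and 22.7 CPM in skin and 1.76, 1.93 and 0.235 CPM in lung (log2 7.0 ± 1.12). Alox12e was highest in skin 3, and Alox8 and Ptgds were lowest there. The secreted phospholipase Pla2g2f was higher in skin too (log2 8.86 ± 0.80), and Alox8 lost its call when no filter was set on low counts (adjusted p = 0.0536). Hpgd, which inactivates prostaglandins, stood at 5.9, 8.64 and 16.2 CPM in skin and 680.3, 476 and 618 CPM in lung (log2 -5.85 ± 0.53, adjusted p = 0.000144), with no overlap. The prostacyclin synthase Ptgis (log2 -6.73 ± 0.68), the leukotriene helper protein Alox5ap (log2 -3.07 ± 0.46) and the thromboxane receptor Tbxa2r (log2 -4.15 ± 0.83) were higher in lung. Of 16 tested adipocyte genes, 3 (18.8%) were higher in skin and 2 (12.5%) in lung, near or under the 15.1% and 20.7% of all genes tested, and 8 were higher in skin without skin 3 and lung 1. The brown fat gene Ucp1 stood at 0, 0.393 and 0 CPM in skin and 597, 217 and 1.41 CPM in lung, so that its lung level came from lung 1 and 2, and its call was lost without skin 3 and lung 1 (adjusted p = 0.19). Lung 1 was the highest lung library for 11 of the 16. Cd36, a fatty acid carrier of fat cells, capillaries and macrophages, stood at 154, 78.1 and 113 CPM in skin and 1756, 1263 and 1272 CPM in lung (log2 -3.63 ± 0.44).

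**Figure D4:**
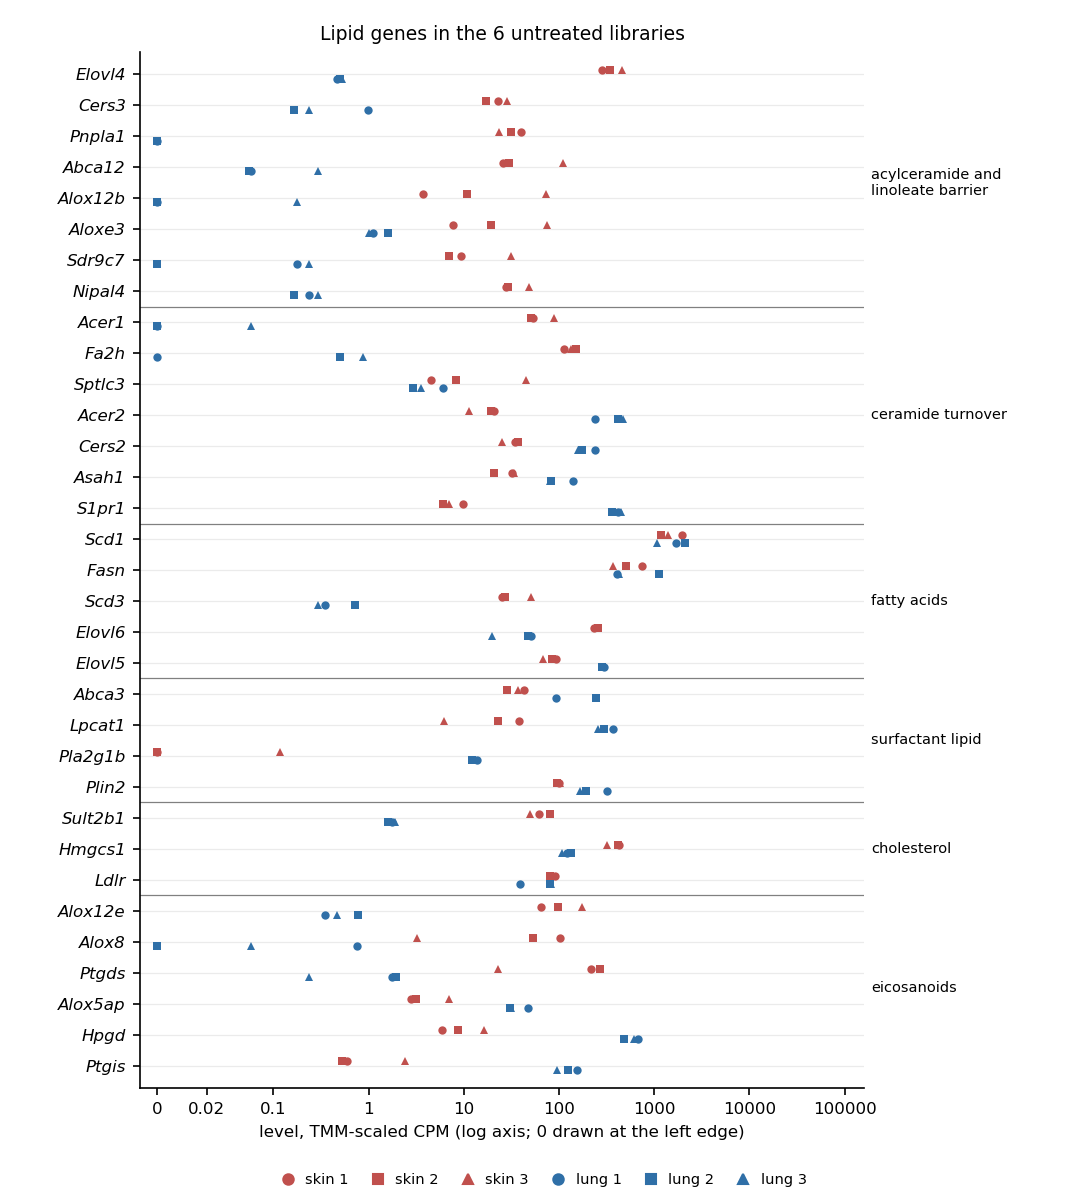
Level of 33 lipid genes in the 3 skin (red) and 3 lung (blue) untreated libraries, in TMM-scaled CPM on a log axis with 0 drawn at the left edge, grouped by pathway. The acylceramide genes lie further right in skin, Scd1 and Fasn overlap between the organs, and Acer1 and Acer2 lie in opposite order.

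Several transcription factors with high levels in one organ had few or no counts in the other. Of 906 genes with a transcription factor term, 588 passed the filter, and their median difference was 0.15. Of these, 128 (21.8%) were higher in skin and 110 (18.7%) in lung, against 15.1% and 20.7% of all genes tested. Without skin 3 and lung 1, 193 were higher in skin and 201 in lung. Factors known for epidermis and its appendages were higher in skin for 27 of 31, with a median of 5.86. Trp63, which encodes p63, stood at 313, 363 and 511 CPM in skin and 2.87, 1.27 and 1.7 CPM in lung (log2 7.66 ± 0.52, adjusted p = 6.01e-05). Gata3, active in epidermis, follicle and T cells, stood at 201, 266 and 466 CPM in skin and 3.4, 16.6 and 24 CPM in lung (log2 4.41 ± 0.74, adjusted p = 0.0021). Every skin library was above every lung library in both. The 4 tested Tfap2 genes, 3 Grhl genes and 5 Dlx genes were higher in skin without exception. Tfap2b was at 73.3, 78.3 and 80.7 CPM and at least 1344-fold higher. Grhl3, a barrier repair factor, stood at 41, 34.8 and 58.3 CPM in skin and 0.761, 0.386 and 0.586 CPM in lung (log2 6.26 ± 0.44). Klf4, a barrier factor of the epidermis in mice, did not pass, at 89.5, 79 and 355 CPM in skin and 80.3, 103 and 148 CPM in lung (adjusted p = 0.435).

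The factors of the hair follicle again showed skin 3 apart. Dlx3 was at 581, 541 and 50.4 CPM in skin with no count in lung, at least 6917-fold higher. Msx2 was at 241, 183 and 19.7 CPM, at least 2652-fold higher. Foxn1, the nude mouse gene, was at 92.7, 51 and 16.5 CPM, at least 972-fold higher. Hoxc13, which acts on hair keratins, was at 264, 222 and 30.5 CPM, a ratio of 9209.7 (95% interval 1653 to 363804). Each was lowest in skin 3. Trp63, Gata3 and Grhl3 were highest there.

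Hox genes differed by cluster. In the HoxC cluster on chromosome 15, all 6 tested genes were higher in skin, and the 9 genes of the cluster summed to 326.9, 307.3 and 127.3 CPM in skin and 0.879, 0.496 and 1.47 CPM in lung. In the HoxD cluster on chromosome 2, 2 of 9 genes were tested and both were higher in skin. The cluster summed to 25.3, 23.1 and 57.6 CPM in skin and 0.528, 0.993 and 0.529 CPM in lung. The HoxA and HoxB clusters had counts in both organs. HoxA summed to 57.3, 87.9 and 195 CPM in skin and 58.9, 114.8 and 103.5 CPM in lung. HoxB summed to 175.1, 242.4 and 125.3 CPM in skin and 47.6, 83.8 and 89.6 CPM in lung. These sums overlapped between skin and lung in HoxA but not in HoxB. Of 9 tested HoxA genes, 3 were higher in skin (Hoxa7, Hoxa9 and Hoxa10) and 0 in lung. Of 8 tested HoxB genes, 5 were higher in skin and 1 in lung. Within HoxB, Hoxb6 (log2 2.26 ± 0.36) and Hoxb8 (log2 5.33 ± 0.49) were higher in skin, while Hoxb5, which acts in lung branching in mice, was higher in lung, at 7.84, 8.44 and 5.63 CPM in skin and 16.8, 34.6 and 37.1 CPM in lung (log2 -2.01 ± 0.40, adjusted p = 0.00473). Hoxc8 was at 28.8, 44.5 and 38.8 CPM in skin and at least 638-fold higher. In the family as a whole 1 gene was higher in lung, and 6 were without skin 3 and lung 1. Tbx15, a dermal factor, stood at 41.9, 44.6 and 134 CPM in skin and 0, 0.165 and 0.469 CPM in lung. The muscle factor Myf6 was at 8.73, 7.46 and 34.4 CPM in skin with no count in lung, at least 291-fold higher, and both were highest in skin 3. The melanocyte factors Mitf (log2 1.24 ± 0.28) and Sox10 (log2 4.22 ± 0.90) were higher in skin.

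Lung factors were listed in 2 groups. Of 28 factors known for lung epithelium, 13 were higher in lung and 3 in skin. Nkx2-1 had 1 count over the 3 skin libraries and stood at 81.7, 184 and 186 CPM in lung, a ratio of 7953 (95% interval 1427 to 314157). Foxa1 and Foxa2, pioneer factors of gut and lung endoderm, had no count in skin and were at least 593-fold and 695-fold higher in lung. Etv5, a type 2 cell factor, stood at 32.3, 32.3 and 30.2 CPM in skin and 66.8, 134 and 125 CPM in lung (log2 -1.78 ± 0.34). The 3 members higher in skin were Mycl (log2 3.41 ± 0.47), Irx2 (log2 1.84 ± 0.32) and Grhl2 (log2 2.35 ± 0.29), the last of which acts in many epithelia. Of factors known for lung mesenchyme and endothelium, all 19 that passed the filter were higher in lung, with a median of -5.34. Epas1, the hypoxia factor HIF-2 alpha of capillaries, stood at 65.9, 48.6 and 77.5 CPM in skin and 1214, 3799 and 4387 CPM in lung (log2 -5.61 ± 0.64, adjusted p = 0.000375). Foxf1 stood at 0.0992, 0 and 0.176 CPM in skin and 364, 289 and 363 CPM in lung (log2 -11.70 ± 0.69). Tcf21, of lung fibroblasts, was at 263, 166 and 93.7 CPM in lung, a ratio of 9137 (95% interval 1639 to 360923). Epas1 was lowest in lung 1 of the lung libraries, and Foxf1 and Tcf21 were not. Klf2, which responds to blood flow, stood at 18.2, 10.8 and 19.1 CPM in skin and 315, 235 and 341 CPM in lung (log2 -4.21 ± 0.39). Endothelial genes were higher in lung for 12 of 15 tested. They summed to 326, 227 and 138 CPM in skin and 4896, 7556 and 8098 CPM in lung. Their sum was lowest in lung 1, as were 16 of the 19 tested factors, Epas1 among them, while Foxf1, Tcf21 and Klf2 were not. The part of endothelial content in the factors' levels was not tested. Pecam1, on the surface of endothelium, stood at 33.1, 21.7 and 18.4 CPM in skin and 738, 1174 and 1240.2 CPM in lung (log2 -5.43 ± 0.47).

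**Figure D5:**
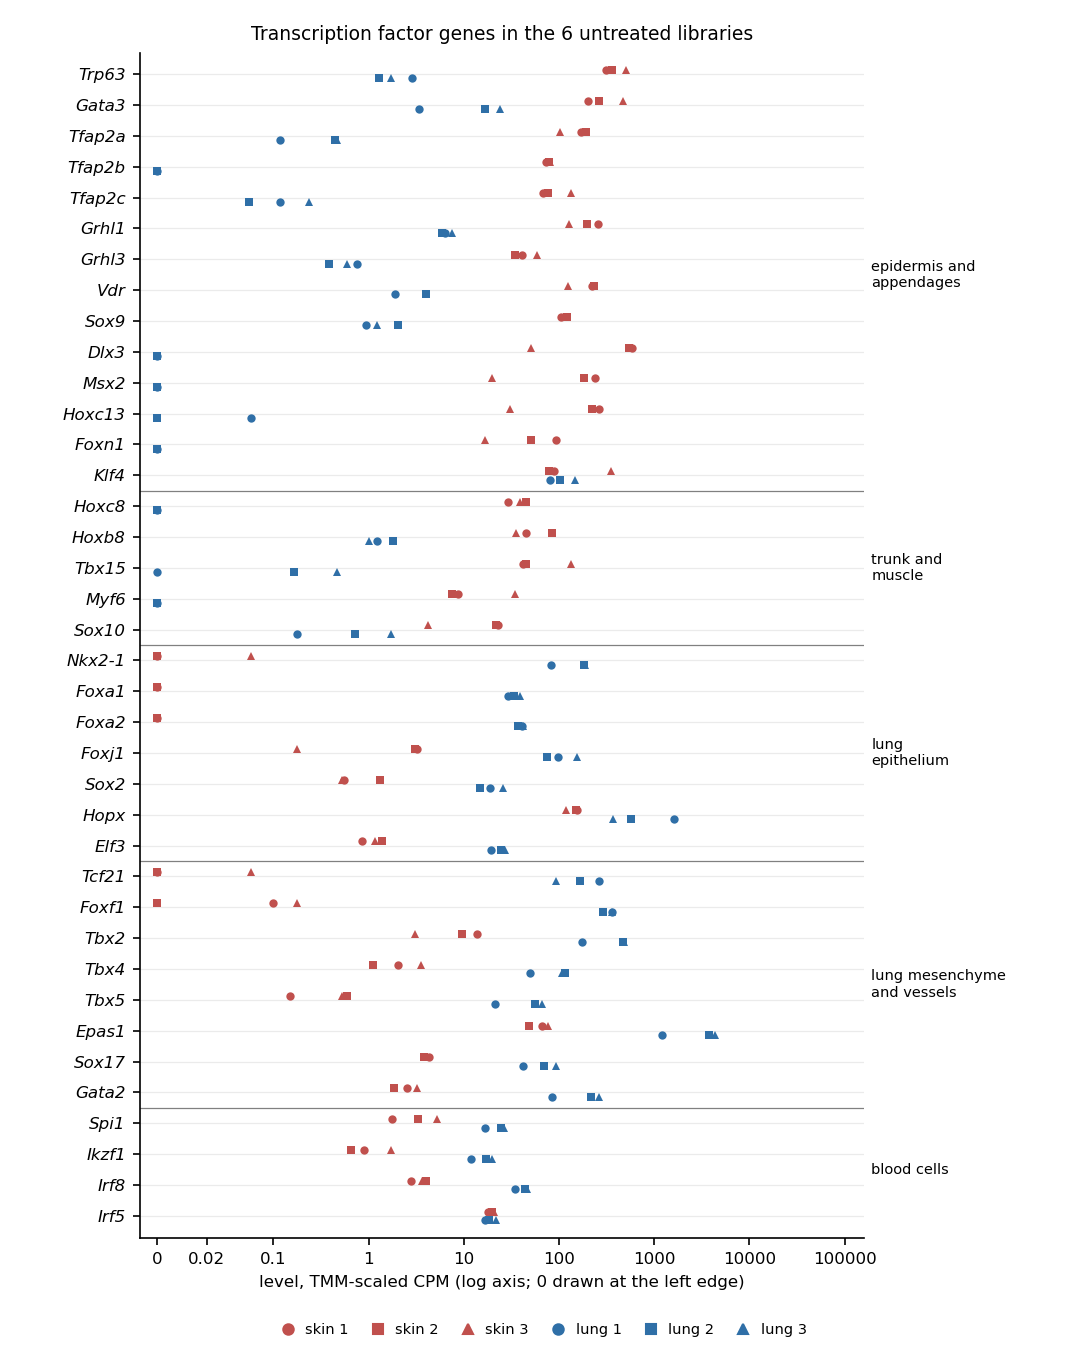
Level of 38 transcription factor genes in the 3 skin (red) and 3 lung (blue) untreated libraries, in TMM-scaled CPM on a log axis with 0 drawn at the left edge. Skin is at or near 0 for Nkx2-1, Foxa1, Foxa2, Tcf21 and Foxf1, lung for Tfap2b, Dlx3, Msx2, Foxn1, Hoxc8 and Myf6, and Irf5 and Klf4 overlap between the organs.

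In several factor families, members were called in opposite directions. Gata3 was the Gata gene higher in skin, and Gata2 (log2 -6.22 ± 0.57), Gata6 (log2 -3.11 ± 0.44) and Gata5 (log2 -7.72 ± 0.95) were higher in lung with Gata4, a factor of heart and other mesoderm, at 0, 0 and 0.0587 CPM in skin and 2.11, 7.94 and 8.15 CPM in lung. Of 14 tested Sox genes, 5 were higher in skin and 5 in lung. Sox9, of follicle stem cells, stood at 105, 122 and 116 CPM in skin and 0.937, 2.04 and 1.23 CPM in lung (log2 6.34 ± 0.42). The lung members included the endothelial Sox17 (log2 -4.09 ± 0.38) and Sox18 (log2 -4.77 ± 0.50) and the airway Sox2 (log2 -4.66 ± 0.52). T-box genes were higher in lung for 7 of 11, and in skin for Tbx1 (log2 2.54 ± 0.47) and Tbx15. Tbx5, which acts with Tbx4 (log2 -5.34 ± 0.56) in lung mesenchyme, stood at 0.149, 0.589 and 0.528 CPM in skin and 21.5, 55.9 and 66.5 CPM in lung (log2 -6.84 ± 0.68). Of 21 tested factors of blood cells, 7 (33.3%) were higher in lung and 2 (9.52%) in skin, against 20.7% and 15.1% of all genes tested. The myeloid factor Spi1 stood at 1.74, 3.34 and 5.28 CPM in skin and 16.8, 24.8 and 26.7 CPM in lung (log2 -2.72 ± 0.48), and the dendritic cell factor Irf8 was higher in lung too (log2 -3.58 ± 0.33). Irf5 had the smallest difference among the listed factors, at 17.8, 20 and 20.8 CPM in skin and 16.7, 18.3 and 21.9 CPM in lung (log2 0.04 ± 0.29).

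The same contrast in the 12 treated libraries, which share no library with the untreated ones, called 5508 genes (29.8%) higher in skin and 5740 (31.0%) higher in lung of 18501 tested. Of the genes higher in untreated skin, 2551 were tested there, 2513 had the same sign, 2239 were called in the same direction and 1 in the opposite one. Of those higher in untreated lung, 3525 were tested, 3484 had the same sign, 3251 were called alike and 2 the other way. Cornified envelope genes were higher in treated skin for 43 of 44 tested, and surfactant genes higher in treated lung for 10 of 10. MHC class II genes were higher in treated lung for 8 of 10, hair follicle genes higher in treated skin for 19 of 19, and cholesterol genes for 19 of 23. Other lists gave other values there. Of 30 ceramide and sphingolipid genes, 13 were higher in treated skin and 7 in treated lung, against 4 and 7 in untreated libraries. The untreated counts were 10 and 11 without skin 3 and lung 1. Of all genes tested, 29.8% and 31.0% were called in treated libraries, against 15.1% and 20.7% in untreated ones. The median difference of chemokine genes was -0.16 in treated and -1.58 in untreated libraries. Among single genes, Scd1 differed by log2 -0.12 in untreated and 1.85 in treated libraries (adjusted p = 0.00563 in the latter). Il33 differed by -0.99 and -1.34, with the same sign in both, and passed only in treated libraries (adjusted p = 0.0038). Of the 344 genes named by the rule and called in untreated libraries, 10 kept their sign but did not pass in treated libraries, and 4 had the opposite sign. Among the 10, Il1b differed by -3.09 and -0.25 (adjusted p = 0.84), H2-Ab1 by -3.01 and -0.48 (adjusted p = 0.187), S100a9 by -3.57 and -0.57 (adjusted p = 0.629) and Cers1 by 2.55 and 0.86 (adjusted p = 0.312). Cxcl16 was at -0.16 in treated libraries (adjusted p = 0.5) and Trbc1 at -0.26 (adjusted p = 0.634), and the other 4 were Irf4, Irf9, Hba-a2 and Gm23935. The difference between untreated and treated libraries was not tested here.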

How the data were processed

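RNA was extracted with an Eastep Super kit and libraries were made with a SMARTER mRNA-Seq kit, per the labels' protocols. The tools bcl2fastq 2.17.1.14 and cutadapt 1.9.1 and the build GRCm38 are listed in the submitters' processing notes, without their roles. How reads were aligned, counted and assigned to strands is not stated in the labels or headers, so genes that overlap, lie antisense or are close copies, some keratin and Lce genes among them, may share reads. The authors deposited 1 table per tissue with raw read counts per Ensembl gene, per the file headers, and FPKM values that were not used here. The 2 tables were joined on the gene identifier (55401 genes).

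The 6 untreated libraries were fitted with edgeR 4.0.16 in R 4.3.3, with TMM scaling, filterByExpr and the robust quasi-likelihood test, tissue being the only term. P-values were adjusted by the Benjamini-Hochberg method over the 17074 genes tested, and the test was checked on simulated counts. The 12 treated libraries were fitted alike with treatment as a term. Where a tissue had no count, the fold is a lower bound from 3 counts over its 3 libraries, and where it had 1 to 3 counts the ratio has an exact 95% interval. Both cover counting error only, since no molecular identifiers are named. Library totals of 15012196 to 18647521 counts set the precision for rare transcripts.

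The comparison, gene lists and factor families were chosen with earlier results of these data known. Genes were named by a rule: up to 5 called members per list and direction of highest level, the 10 largest folds per direction above 50 CPM, the 10 highest levels per kilobase, and the member of smallest difference per kind of list. Alox12b, Aloxe3, Cd207, Cers3, Fasn, Il33, Klf4, Lamp3, Pnpla1, Scd1, Sult2b1 and Tslp lie outside it and were chosen after their values were seen, some genes the rule names are not reported here, and the set of genes with a transcription factor term was added after seeing the data. Promoters came from RefSeq, in which 740 of 1013 genes looked up were matched by symbol. Libraries of the 2 tissues were not paired in the main fit. Deviations from the tissue mean correlated at r = -0.125, -0.129 and 0 between same-numbered libraries. These pairs carry different codes, so they cannot show whether a shared code marks 1 mouse. Between libraries of the same code, r was 0.119 (skin 1 and lung 2) and -0.1 (skin 2 and lung 3). Library codes c2 and c3 occur in both tissues and may mark shared mice, which the labels do not state. Alternatives covered scaling, test, filter, fold threshold, length trend, blocks, the libraries in the fit and each library left out.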

Additional observations from a re-analysis of the deposited data

How the results depend on the processing

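Counts of genes higher in skin (2579) and in lung (3535) stayed within 1.5 times of these values with RLE size factors, DESeq2 1.42.0 (3077 and 3956), no filter on low counts, the length trend removed, scaling without muscle, hair and red cell genes, all 18 libraries in the fit (3542 and 4642) and the replicate block (2276 and 3269). Leaving out 1 library gave 1868 to 3202 in skin and 2824 to 3986 in lung. A fold threshold of 2 left 1575 higher in skin and 2545 in lung, and 6436 of 11248 genes called in treated libraries. A block by mouse code, which rests on the 4 libraries of codes c2 and c3, called 5138 and 5453. The same 4 libraries without a block, a choice made after seeing the data, called 5304 and 5526. The 12 treated libraries called 5508 and 5740. The causes were not tested.

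Of 344 called genes named by the rule, 15 lost their call with the replicate block, which pairs libraries by number only, 15 without a filter on low counts, 46 with a fold threshold of 2, 10 in treated libraries, 11 to 36 without 1 library and 0 to 7 in each other setting. In treated libraries Ctsk (0.24), Degs1 (0.71), Plin2 (0.94, adjusted p = 0.0311) and Col2a1 (-0.54) had the opposite sign. Mbp, near 0 with 6 libraries, was at -0.95 with the block by mouse code and with the 4 libraries. With 3 libraries per organ an exact permutation test of 1 gene cannot go below 0.1. Each organ was 1 table, and lung 1 differed from the other lung libraries in its trend with transcript length (log2 -0.93 between the longest and shortest genes, against 0.44 and 0.47).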
